A study of Homo sapiens with 7 samples.

Results

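RUNX2 binding and H3K27 acetylation were set against each other within KARPAS-45, a T-cell acute lymphoblastic leukaemia (T-ALL) cell line with a KMT2A rearrangement. Of the study's 7 samples, 2 were used: 1 chromatin immunoprecipitation (ChIP) library of RUNX2 (antibody D1H7) and 1 of H3K27ac (antibody ab4729). The study asks about dependence on RUNX2 in immature and KMT2A-rearranged T-ALL. Both libraries came from untreated cells of the same line in medium with 20% serum, crosslinked for 10 min with 1.1% formaldehyde, sheared to fragments of 200 to 300 bp and incubated with 10 ug of antibody. KARPAS-45 is a single line from 1 patient, and each mark has 1 library, so no value has a replicate error and no test was made.

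Members were chosen by position. Each of 19974 protein-coding RefSeq genes on chromosomes 1 to 22 and X was given a window of its span plus 10 kb at either end. A gene counted as bound with at least 1 of 42911 RUNX2 intervals touching the window, and as acetylated with at least 1 base of 63265 H3K27ac regions in it. Both marks were present at 13309 genes, RUNX2 alone at 1107, H3K27ac alone at 1467 and neither at 4091.

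RUNX2 is a Runt-domain transcription factor that binds DNA together with its partner CBFB. It is best known for driving bone formation, while its relatives RUNX1 and RUNX3 act in blood stem cells and T cells. H3K27ac is laid down by the acetyltransferases EP300 and CREBBP on nucleosomes around active promoters and enhancers, and stretches of unusually wide acetylation often lie at genes that define a cell's identity. Many factors besides the RUNX proteins bring in these enzymes, and RUNX proteins can also recruit corepressors that remove the mark.

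The 9 promoter stretches printed here show what lay under a RUNX2 summit, the point of highest signal in a peak, at genes with both marks and with RUNX2 alone, and beside them acetylated promoters without a summit. They are RefSeq sequence on GRCh38.p14, written 5′ to 3′ on the gene's strand and ending before the annotated start. Capitals mark the Runt-domain motif in the letters TGTGGT or TGCGGT, or on the other strand ACCACA or ACCGCA. The first 4 belong to genes with both marks and were the list members with the strongest promoter peaks, the next 3 to genes with RUNX2 alone, strongest first, and the last 2 to genes with H3K27ac alone.
PSIP1: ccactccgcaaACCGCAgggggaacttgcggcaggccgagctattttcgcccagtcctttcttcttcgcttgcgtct
SLC3A2: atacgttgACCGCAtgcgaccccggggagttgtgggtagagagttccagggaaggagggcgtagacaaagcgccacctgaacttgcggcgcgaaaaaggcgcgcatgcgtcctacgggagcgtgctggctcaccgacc
PTPN22: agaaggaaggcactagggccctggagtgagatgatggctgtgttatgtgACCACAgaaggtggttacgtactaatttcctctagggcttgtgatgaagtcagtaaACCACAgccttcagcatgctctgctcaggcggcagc
PTCRA: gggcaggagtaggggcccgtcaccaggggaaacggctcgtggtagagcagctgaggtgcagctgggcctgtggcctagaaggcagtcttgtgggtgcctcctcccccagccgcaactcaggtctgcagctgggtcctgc
FCRL6: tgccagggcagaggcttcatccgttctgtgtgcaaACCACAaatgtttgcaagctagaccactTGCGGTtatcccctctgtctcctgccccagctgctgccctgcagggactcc
LINC02798: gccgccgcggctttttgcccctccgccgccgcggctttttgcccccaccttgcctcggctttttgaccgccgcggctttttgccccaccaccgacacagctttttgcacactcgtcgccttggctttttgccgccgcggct
BPIFB4: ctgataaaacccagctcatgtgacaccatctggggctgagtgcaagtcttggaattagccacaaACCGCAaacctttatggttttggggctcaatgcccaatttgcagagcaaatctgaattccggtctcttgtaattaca
GIMAP6: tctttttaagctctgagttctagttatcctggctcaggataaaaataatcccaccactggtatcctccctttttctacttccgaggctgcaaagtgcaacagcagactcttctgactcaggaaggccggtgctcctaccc
NDUFB7: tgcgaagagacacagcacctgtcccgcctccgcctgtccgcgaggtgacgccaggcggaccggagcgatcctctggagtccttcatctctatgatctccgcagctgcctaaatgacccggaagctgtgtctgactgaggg

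PSIP1, which tethers the KMT2A complex to chromatin, had its stretch at chr9:15511144-15511220 on the minus strand. Its RUNX2 peak had a fold enrichment of 59.9 (the authors' value of signal over background for each peak), and the motif's centre lay 7.5 bases from the summit. At SLC3A2, the shared chain of amino acid carriers (chr11:62855971-62856108, plus strand), the peak's fold enrichment was 47.4. The motif in that stretch was centred at -59.5 bases from the summit, negative values lying upstream. PTPN22, a phosphatase that restrains T-cell receptor signalling (chr1:113871713-113871853, minus strand), had a peak of 45.8. The 2 motif copies in that stretch stood at -18.5 and 37.5 bases, 1 on each side of the summit. The whole promoter of 300 bases held 3 copies. PTCRA, the pre-T-cell receptor alpha chain (chr6:42915914-42916052, plus strand), had a peak of 45.4 with no match to these letters.

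FCRL6, an Fc receptor-like gene of cytotoxic lymphocytes, carried 1 motif copy of each form at chr1:159800398-159800511 on the plus strand, under a peak of 30.4 in a window without H3K27ac. LINC02798 (chr1:121396413-121396553, plus strand) had a peak of 28.0 without H3K27ac and no match to the letters. It counted among the protein-coding RefSeq genes despite its non-coding symbol. Its stretch is built of repeated similar segments. Whether reads mapped there uniquely was not tested, so its value is uncertain. BPIFB4, a secreted lipid-binding family member (chr20:33079429-33079569, plus strand), had its motif at -3.5 bases from the summit of a peak of 26.4, also without H3K27ac. GIMAP6, a lymphocyte GTPase (chr7:150632386-150632525, minus strand), and NDUFB7, a respiratory complex I subunit (chr19:14572067-14572206, minus strand), were wholly acetylated across the promoter, had no RUNX2 peak and held no match.

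Across all promoters the motif was found more often under stronger peaks. RefSeq promoters of 300 bases (250 before and 50 after the start) were at hand for 15812 of the genes, 22132 in all, of which 27.8% held a RUNX2 summit and 56.2% were touched by H3K27ac. Either letter form on either strand was present in 73.2% of the 515 promoters whose summit belonged to the strongest 10% of all peaks (95% Wilson interval 69.2 to 76.8), in 26.9% of all 6158 promoters with a summit, and in 19.0% of all promoters. Among promoters with such strong peaks the share was 73.2% of 492 with H3K27ac and 73.9% of 23 without it. Within 50 bases on either side of a summit, the motif stood in 63.8% of 403 windows of the strongest 10% (59.0 to 68.3) and in 8.38% of 2231 windows of the weaker 50% of peaks, while 6.52% of all windows of that length in promoters held it. All intervals here cover counting error only, and neighbouring peaks and overlapping promoters are not independent.

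Promoters with a summit but no H3K27ac held the motif more often than acetylated ones. The share was 26.4% of the 5967 promoters with both (25.3 to 27.5) and 44.5% of the 191 with a summit alone (37.6 to 51.6). Within the weaker 50% of peaks it was 13.9% of 2800 promoters with both (12.7 to 15.3) and 32.4% of 102 with a summit alone (24.1 to 41.9). The longer form TGTGGTTT, which contains TGTGGT and is counted within it, was in 1.73% of promoters with both, in 13.1% of those with a summit alone, and in 1.31% of all promoters. The G+C content of the promoters with both and with a summit alone was close, at 65.8% and 65.4%. Promoters with H3K27ac and no summit held either form in 12.2% of 6472 cases. A letter match is a description of the sequence, not of a bound site.

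**Figure D1:**
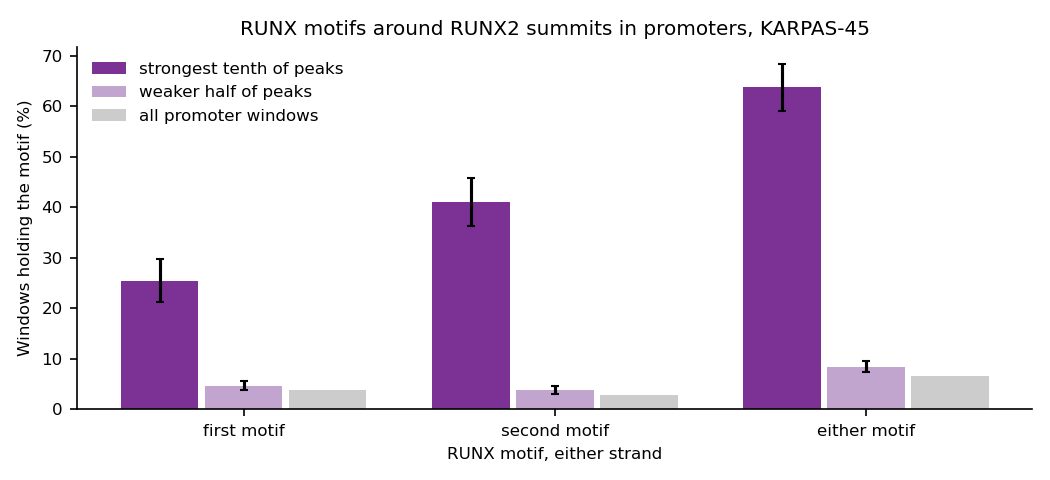
Share of promoter windows reaching 50 bases to either side (vertical axis, %) holding TGTGGT (first motif), TGCGGT (second motif) or either, for windows centred on RUNX2 summits of the strongest 10% of peaks (403 windows), of the weaker 50% (2231 windows) and for all windows of all promoters; error bars are Wilson 95% intervals. The strongest 10% stand at 63.8% for either motif, and the weaker 50%, at 8.38%, lie near the 6.52% of all windows.

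T-cell markers had the highest median H3K27ac per window of the marker sets compared. All 12 T-cell marker genes carried H3K27ac, at a median of 22.8 kb per window and between 0.885 and 92.8 kb. Markers of other cell types had less: medians of 3.74 kb for 6 B-cell, 1.64 kb for 8 myeloid, 0.706 kb for 7 erythroid, 2.57 kb for 6 NK, 0 kb for 5 epithelial and 1.39 kb for 5 bone markers. Most of these other markers still carried some H3K27ac, as did 74% of all genes. It was present at 5 of 6 B-cell, 7 of 8 myeloid, 5 of 7 erythroid and 4 of 6 NK markers. Among bone markers it was at 3 of 5, and among epithelial markers at 2 of 5. Markers with none included EBF1, CD33, HBB, NCAM1, NCR1, KRT5, KRT14, KRT19, IBSP and COL10A1. The part of other cells in the results was not tested.

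The 2 marks shared most of their genes. Both were in the window of 66.6% of protein-coding genes, RUNX2 alone of 5.54%, H3K27ac alone of 7.34% and neither of 20.5%. Any RUNX2 peak was found at 72.2% of genes and any H3K27ac at 74% of genes, so that a shared window is common for any gene and a list has to be read against these shares. Genes with both had a median of 2 RUNX2 peaks (quartiles 1 and 4) and 7.71 kb of H3K27ac (3.37 and 15.8 kb). Genes with RUNX2 alone had a median of 1 peak, with exactly 1 at 74.8% of them, and genes with H3K27ac alone had a median of 1.72 kb. In 93.1% of genes with both, at least 1 RUNX2 summit lay inside the H3K27ac of the window. At the other 924 genes no summit did, though a peak could still touch a region.

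Acetylation grew with the number of RUNX2 peaks. H3K27ac was present at 26.4% of 5558 genes without a RUNX2 peak, 81.4% of 4443 with 1 peak, 94.5% of 3721 with 2, 98.4% of 4636 with 3 to 5, and 99.8% of 1275 with 6 to 10. All 341 genes with over 10 peaks were acetylated, with a median of 64.1 kb, against 2.62 kb at genes with 1 peak. Longer genes have larger windows, and the median span was 238 kb at genes with over 10 peaks and 20.2 kb at those with 1. Per 100 kb of window, Spearman's rho between RUNX2 peaks and the share of the window acetylated was 0.764 over 19974 genes, which share reads, neighbours and open chromatin and are not replicates. Within 5 equal groups of genes by span, short to long, this rho was 0.787, 0.750, 0.710, 0.702 and 0.833.

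**Figure D2:**
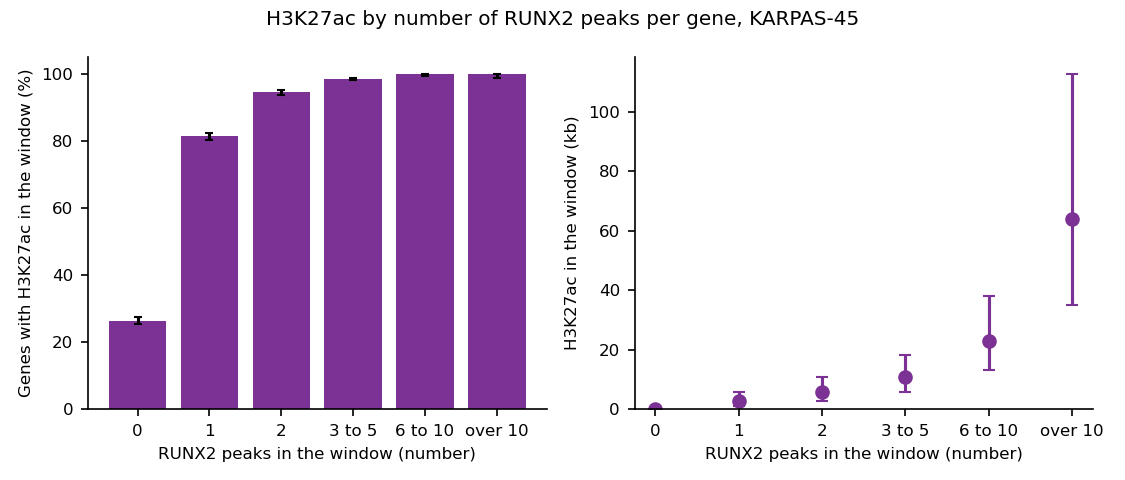
Genes grouped by the number of RUNX2 peaks in the window (horizontal axes). Left, share of genes with any H3K27ac (%, Wilson 95% intervals); right, H3K27ac per window (kb, median with quartiles). The share runs between 26.4% without a RUNX2 peak and 100% with over 10, and the median between 0 and 64.1 kb.

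Gene length separated the classes. Median spans were 29.4 kb for genes with both marks, 40.2 kb with RUNX2 alone, 14.8 kb with H3K27ac alone and 11.7 kb with neither. RUNX2 alone took 9.59% of the longest 20% of genes and 4.98% of the shortest 20%, while H3K27ac alone took 3.25% of the longest and 9.99% of the shortest.

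The RUNX genes themselves and CBFB all carried both marks. RUNX1, a regulator of blood stem cells and thymocytes, had 30 RUNX2 peaks, 28 with the summit in H3K27ac, and 182 kb of acetylation over 64.7% of its window. RUNX2 had 18 peaks, 14 of them acetylated, and 138 kb. RUNX3, which silences CD4 in cytotoxic T cells, had 7 peaks with fold enrichments of 27.9, 27.4, 9.27, 8.41, 8.37, 8.01 and 4.80, and 31.3 kb. Its strongest peak was the 1 outside H3K27ac, by 3415 bp. CBFB, the non-DNA-binding partner, had 6 peaks and 20.2 kb, and its strongest, at 17.0, also lay outside, by 4349 bp. RUNX1 and RUNX2 had the larger numbers of peaks and acetylated bases, but they are longer genes. Their spans were 262 and 223 kb, against 65.6 kb for RUNX3 and 71.9 kb for CBFB. Per 100 kb of window, RUNX1 had 10.7 peaks, RUNX3 8.17, RUNX2 7.41 and CBFB 6.53. The acetylated share of the window was 57.01% at RUNX2, 36.5% at RUNX3 and 21.96% at CBFB. At RUNX3 and CBFB only the single strongest peak lay outside H3K27ac, with 6 of 7 and 5 of 6 summits inside it.

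RUNX cofactors carried both marks in 17 of 19 cases. TLE4, a Groucho-family corepressor, had 13 peaks (9 acetylated), KAT6B, an acetyltransferase, also 13 (11 acetylated), and CBFA2T3, an ETO-family corepressor, 10, all acetylated. YAP1 and WWTR1, Hippo-pathway coactivators that bind RUNX proteins, had neither mark.

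Among all genes with both marks, the largest numbers of RUNX2 peaks lay at long genes with wide acetylation. GSE1, a coiled-coil protein found in histone deacetylase complexes, led with 79 peaks, of which 77 were acetylated, and 348 kb of H3K27ac. MSI2, an RNA-binding regulator of stem and leukaemia cells, had 47 peaks and 356 kb, and its strongest peak reached 76.8. RPTOR, the scaffold of mTORC1, had 44 peaks, all acetylated, and 317 kb. LDLRAD4, an inhibitor of TGF-beta signalling, had 42 peaks and 398 kb, the most acetylated bases of any gene. IGF1R, the receptor of insulin-like growth factor, had 36 peaks, all acetylated, and 287 kb. SUPT3H, a subunit of the SAGA acetyltransferase complex whose gene overlaps that of RUNX2, had 35 peaks and 282 kb, and SEPTIN9, a cytoskeletal GTPase, had 33 peaks and 160 kb. AUTS2, a neurodevelopmental gene of the Polycomb machinery, differed from the others with 36 peaks of which only 16 were acetylated, and with H3K27ac over 5.47% of its window.

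Relative to window length the leaders were short genes. IRF2BP2, a transcriptional corepressor, had 38.6 RUNX2 peaks per 100 kb of window, against 2.76 at the median gene. ZFP36L2 and ZFP36L1, which destabilise messenger RNAs in developing thymocytes, had 37.2 and 34.98, SELPLG, the selectin ligand PSGL-1, had 34.4, HES4, a repressor of the HES family, had 33.1, and JUNB, an AP-1 factor, had 32.1. BMI1, a Polycomb protein of self-renewing cells, had 32.7, in a window that was wholly acetylated. HES1, the NOTCH target and transcriptional repressor, had 35.4, with 8 peaks in a window with 12.01 kb of H3K27ac. Its peaks had fold enrichments of 27.04, 21.9, 6.28, 6.28, 6.18, 4.25, 4.03 and 3.46. All 8 summits lay in H3K27ac, and 2 peaks stood well above the rest.

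Windows covered from end to end by H3K27ac were ordered by their strongest RUNX2 peak. The leaders included several genes of thymocytes and leukocytes. Also among them were REPIN1, with 8 peaks, and PROB1, with 7. PTCRA had 6 peaks in 29.8 kb, with fold enrichments of 45.4, 16.4, 5.41, 4.17, 3.67 and 3.09. GFI1, a repressor in early T cells and stem cells, had 5 peaks, SPN, the leukocyte surface sialomucin CD43, had 4, and ADA, adenosine deaminase, whose loss causes severe immunodeficiency, had 8. TMSB4X, the actin-binding thymosin beta 4, had 5 peaks and H3C4, a histone H3 gene, had 6. Over 50% of the window was acetylated at 1525 genes, while the median gene had 6.97%.

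T-cell receptor genes had the highest median share of acetylated window of the 38 lists. The 5 genes of the receptor and CD3 complex all carried both marks, with a median of 84.6% of the window acetylated and 16.2 RUNX2 peaks per 100 kb. CD247, the zeta chain, had 9 peaks, all acetylated, and 92.8 kb. CD3E had 4 peaks with fold enrichments of 41.6, 7.86, 6.63 and 5.58, all acetylated. CD3D and CD3G, whose windows share peaks with each other, had 4 and 5 peaks with a strongest fold of 8.87.

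T-cell surface receptors (median span 31.7 kb) carried both marks in 18 of 22 cases, against 72.5% of all genes with spans of 16.4 to 35.3 kb. CD8B had 11 peaks and 64.0 kb, with 96.3% of the window acetylated, and CD8A, the other chain of the cytotoxic coreceptor, had 7 peaks and 26.2 kb. PTPRC, the phosphatase CD45, had 8 peaks up to 45.7 and 82.3 kb, and CD2, an adhesion receptor, had 5 peaks and 26.5 kb. CD1E, which takes part in lipid antigen handling, had RUNX2 alone with 1 peak of 5.59, and SLAMF6 had H3K27ac alone over 1.19 kb. CTLA4 and ICOS, costimulatory receptors of activated T cells, had neither.

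Signalling genes below the receptor had both marks in 25 of 27 cases. Their median span was 57.9 kb, and 76.4% of all genes with spans of 35.3 to 83.6 kb had both. NFATC1, a calcium-regulated factor, had 20 peaks and 117 kb, FYN, a Src-family kinase, 15 peaks and 23.2 kb, GRAP2, an adaptor, 13 peaks and 77.4 kb, and PRKCQ, protein kinase C theta, 12 peaks and 50.1 kb. All peaks of GRAP2 were acetylated, and 10 of those at FYN. GRAP, a related adaptor with a near-identical copy in the genome so that its value is uncertain, had H3K27ac alone, over 5.85 kb. NFATC2 had neither mark.

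T-lineage transcription factors (median span 43.3 kb) had both marks at 24 of 25 genes, against 76.4% of all genes with spans of 35.3 to 83.6 kb. TCF12, an E protein, had 22 peaks, 16 acetylated, and 180 kb. IKZF1, the lymphoid regulator Ikaros, had 20 peaks and 93.6 kb. ETS1 had 13 peaks, all acetylated, and 88.5 kb, and LEF1, a Wnt-pathway factor of early thymocytes, had 13 of which 9 were acetylated. TBX21, the regulator of Th1 cells, was the exception, with 1 RUNX2 peak of 6.005 that lay 25434 bp from the nearest H3K27ac.

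NOTCH pathway genes (median span 41.3 kb) had both marks in 22 of 25 cases, against 76.4% of all genes with spans of 35.3 to 83.6 kb. Among receptors, NOTCH1, the most often mutated gene of T-ALL, had 11 peaks, 9 acetylated, and 48.9 kb, while NOTCH2 had 1 peak of 12.01 and no H3K27ac. ADAM10, the protease that cleaves the receptor, had 10 peaks and 160 kb, all acetylated. MAML3, a coactivator, had 12 peaks of which 3 were acetylated, and the summit of its strongest, at 53.3, lay 32 bp outside H3K27ac. Of the deltex genes, DTX2 had RUNX2 alone and DTX3 H3K27ac alone, over 1.29 kb. NOTCH2 and DTX2 have near-identical copies elsewhere in the genome, and their values are uncertain.

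**Figure D3:**
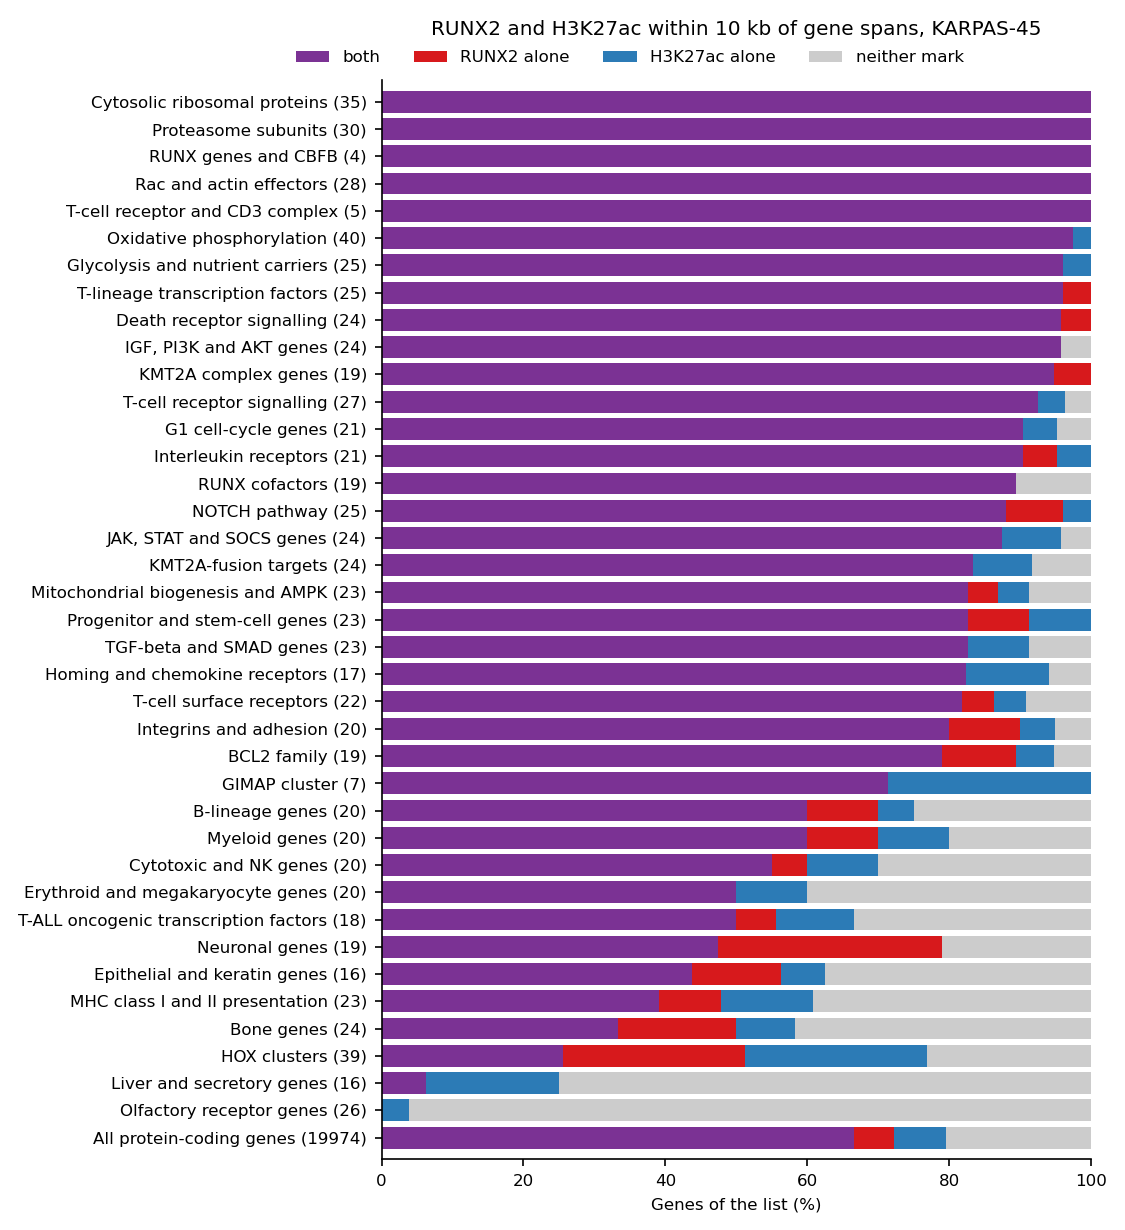
Share of genes (horizontal axis, %) with both marks, RUNX2 alone, H3K27ac alone and neither mark for 38 gene lists, with the number of genes in brackets and all 19974 protein-coding genes in the bottom row. Lists are sorted by the share with both marks, from 100% for the receptor and CD3 complex to 0% for olfactory receptors; all genes stand at 66.6%.

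Transcription factors that drive T-ALL when wrongly activated were marked in part. Both marks were at 9 of 18, which is 50%, against 66.6% of all genes and 48.7% of the shortest 20% of genes. The list's median span was 5.71 kb. Of the others, 1 had RUNX2 alone, 2 had H3K27ac alone and 6 had neither, and only 4 held a RUNX2 summit inside H3K27ac, against 62% of all genes. LYL1, of the basic helix-loop-helix family and known in immature T-ALL, stood apart with peaks of 57.2, 4.80 and 4.003, all acetylated, in 13.1 kb. LMO1, a LIM-domain partner of that family, had 3 peaks but 0.268 kb of H3K27ac, and TLX1, a homeobox oncogene, 2 peaks and 0.212 kb, none of them acetylated. OLIG2, another basic helix-loop-helix gene, had H3K27ac alone, over 0.258 kb. TAL1, TAL2, LMO3, NKX2-1, NKX2-5 and MEF2C had neither mark.

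Of 39 genes of the HOX clusters, 10 had both marks, 10 RUNX2 alone, 10 H3K27ac alone and 9 neither. Among all genes the shares of these classes were 66.6, 5.54, 7.34 and 20.5%. Among the shortest 20% of genes they were 48.7, 4.98, 9.99 and 36.4%. The median span of the HOX genes was 3.785 kb. Their windows overlap, so neighbouring genes share peaks and H3K27ac regions and are not separate cases. The D cluster held the strongest sites: HOXD3 had 4 peaks, all acetylated, up to 26.6, with 12.8 kb, and HOXD8 had 3 with 10.9 kb. At the A cluster, HOXA13 and HOXA11 shared a peak of 11.5 that lay 12151 bp from H3K27ac. HOXA9 and HOXA7, the usual targets of KMT2A fusions, shared 1 H3K27ac region of 0.770 kb and had no RUNX2 peak. HOXC12 and HOXB3 had RUNX2 alone, at 12.8 and 5.41. HOXC4, HOXC5, HOXC6 and HOXC8 had H3K27ac alone, all from 1 shared region of 1.39 kb.

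KMT2A-fusion targets, a list that includes HOXA genes, had both marks at 20 of 24. The list's median span was 137 kb, and 71.8% of the longest 20% of all genes had both. CDK6, a G1 kinase, had 17 peaks up to 52.2, all acetylated, in 239 kb covering 95.1% of its window, and JMJD1C, a histone demethylase family member, had 16 peaks and 164 kb. Genes of the KMT2A complex and its partners had both in 18 of 19 cases. Their median span was 68.6 kb, and 76.4% of all genes with spans of 35.3 to 83.6 kb had both. AFF1, an elongation factor and fusion partner, had 15 peaks and 171 kb, MLLT10 had 10 and 135 kb, and DOT1L, the H3K79 methyltransferase, 7 and 63.5 kb. AFF3, a paralogue of AFF1, had RUNX2 alone, with 2 peaks up to 19.8 and H3K27ac no nearer than 54508 bp from the gene.

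Progenitor and stem-cell genes had both marks in 19 of 23 cases, with a median of 2 peaks and 4.32 kb. The medians over all genes were 1 peak and 3.71 kb. The list's median span was 82.8 kb, and 76.4% of all genes with spans of 35.3 to 83.6 kb had both. Besides MSI2 and IGF1R, KIT, the stem cell factor receptor, had 7 peaks but 3 acetylated and 4.07 kb, and HMGA2, a chromatin architectural protein, 7 peaks and 45.9 kb. CD44, a hyaluronan receptor, had 1 RUNX2 peak of 17.1 and no H3K27ac. CSF1R and GATA2 had 1.17 and 0.672 kb of H3K27ac and no RUNX2 peak.

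Most migration and adhesion genes carried both marks, which 66.6% of all genes also did. Homing and chemokine receptors had both marks in 14 of 17. CXCR4, which holds leukaemia cells in the marrow niche, had 7 peaks with fold enrichments of 25.02, 7.62, 6.32, 5.59, 4.58, 3.999 and 3.01. All 7 were acetylated, in 14.6 kb, and the strongest lay inside the gene. SELPLG had 11 peaks in 29.3 kb, and CCR7, the lymph node homing receptor, 5 in 17.1 kb with a strongest fold of 34.7. CX3CR1 had 6 peaks, 4 of them acetylated, while CXCR6 and CCR4 had H3K27ac alone, over 2.67 and 0.213 kb.

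Integrins and adhesion genes (median span 53.5 kb) had both in 16 of 20, against 76.4% of all genes with spans of 35.3 to 83.6 kb. CD226, an activating adhesion receptor, had 13 peaks, all acetylated, in 116 kb, and ITGB2, the beta chain of leukocyte integrins, 12 in 45.3 kb. ITGA6, the laminin receptor chain linked to spread into the central nervous system, had 9 peaks with 3 acetylated and 4.12 kb. VCAM1 and ITGB3 had RUNX2 alone, at 13.3 and 8.98, and ITGA1 had H3K27ac alone. Each of 28 Rac and actin effectors carried both marks. Their median span was 74.7 kb, and 76.4% of all genes with spans of 35.3 to 83.6 kb had both. EVL, an actin-polymerising protein, had 18 peaks and 139 kb, STK10, a lymphocyte kinase, 16 and 40.9 kb, and ELMO1, part of a Rac exchange factor, 9 peaks of which 4 were acetylated.

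Interleukin receptors (median span 35.7 kb) had both in 19 of 21, against 76.4% of all genes with spans of 35.3 to 83.6 kb. IL17RA had 9 peaks up to 57.9. IL7R, needed for early T cells, had 4 peaks, 3 acetylated, with a strongest fold of 27.9 and 12.8 kb. IL6R had 8 peaks of which 3 were acetylated. IL18R1 had RUNX2 alone and IL15RA H3K27ac alone. JAK, STAT and SOCS genes (median span 23.9 kb) had both in 21 of 24, against 72.5% of all genes with spans of 16.4 to 35.3 kb. STAT3 had 7 peaks, all acetylated, in 63.6 kb, and JAK1 had 6 with 3 acetylated and its strongest, at 18.0, 15749 bp from H3K27ac. SOCS1, an inhibitor of JAK kinases, had H3K27ac alone over 6.31 kb, with the nearest RUNX2 summit 20196 bp from the gene.

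Genes with both marks included survival genes on both sides of the balance, against a share of 66.6% among all genes. The median span of the BCL2 family was 19.0 kb, and 72.5% of all genes with spans of 16.4 to 35.3 kb had both. BCL2-family genes had both marks in 15 of 19, including the inhibitors of cell death BCL2, with 11 peaks and 69.8 kb, and BCL2L1, with 8 and 64.5 kb, and the promoters of death BID, with 12 and 49.2 kb, and BCL2L11, with 8 and 26.1 kb. All peaks at BID and BCL2L1 were acetylated. BCL2L14 and HRK had RUNX2 alone, at 11.7 and 4.80, BOK had H3K27ac alone, and 1 further member had neither mark. Death receptor genes had both in 23 of 24, led by CFLAR, which blocks caspase-8, with 12 peaks, 11 acetylated, and 20.8 kb. FASLG, the death ligand of cytotoxic T cells, was the 1 with RUNX2 alone. It had 3 peaks, of 30.3, 22.2 and 16.2, that lay 5614, 14947 and 22961 bp from the nearest H3K27ac, so all 3 exceeded the 6.81 that was the median strongest peak of genes with RUNX2 alone.

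G1 cell-cycle genes (median span 13.3 kb) had both in 19 of 21, against 63.7% of all genes with spans of 6.49 to 16.4 kb. CCND3, the D-type cyclin of thymocytes, had 19 peaks, all acetylated, in 118 kb, E2F2, a factor that drives S phase, had 8 in 36.9 kb and CDKN2C, an inhibitor of CDK4 and CDK6, had 6 in 32.2 kb. The other D cyclins differed: CCND1 had 1.11 kb of H3K27ac and no RUNX2 peak, and CCND2 had neither mark. IGF, PI3K and AKT genes had both in 23 of 24. IGF2R, a receptor that clears IGF2, had 19 peaks and 96.6 kb, and its strongest, at 79.6, was outside H3K27ac by 2437 bp. PIK3CD, the leukocyte PI3-kinase delta, had 8 peaks in 84.4 kb, all acetylated.

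TGF-beta and SMAD genes (median span 81.9 kb) had both in 19 of 23, against 76.4% of all genes with spans of 35.3 to 83.6 kb. SMAD3, a signal transducer, had 20 peaks, 14 acetylated, and 45.2 kb, and SKI, an inhibitor of SMADs, 15 peaks and 84.4 kb. TGFBR3, an accessory receptor, had 8 peaks with 2 acetylated, and its strongest, at 49.6, lay 12614 bp from H3K27ac. TGFB3, a ligand, and SMAD9 had H3K27ac alone.

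Housekeeping genes carried both marks nearly throughout, against 66.6% of all genes. All 35 ribosomal protein genes and all 30 proteasome genes had both marks, at a median of 2 RUNX2 peaks each, the same as for all genes with both, with 7.94 and 8.90 kb of H3K27ac and median strongest folds of 11.9 and 7.16. Per 100 kb of window the medians were 7.64 and 4.65 peaks, against 4.20 for all genes with both. RPL19 had 5 peaks, all acetylated, up to 13.5, and PSMA1 10 peaks up to 26.9. Oxidative phosphorylation genes had both at 39 of 40, with NDUFA10 of complex I at 9 peaks and the ATP synthase genes ATP5F1D, ATP5F1A and ATP5F1B at 6, 5 and 4. NDUFB7 had H3K27ac alone, over 6.47 kb. Mitochondrial biogenesis and AMPK genes had both in 19 of 23. PRKAA1, the catalytic subunit of AMPK, had 5 peaks up to 26.1, all acetylated, and NRF1, a factor for mitochondrial genes, 5 with 4 acetylated. PPARGC1A, the coactivator PGC-1 alpha, had 2 RUNX2 peaks up to 7.21 and no H3K27ac, and TWNK, the mitochondrial helicase, had 7.93 kb of H3K27ac and no peak.

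Glycolysis and carrier genes had both at 24 of 25. SLC2A1, the glucose carrier GLUT1, had 6 peaks up to 28.4 in 34.7 kb, SLC7A5, an amino acid carrier that pairs with SLC3A2, 8 in 58.0 kb, and PKM, pyruvate kinase, 4 in 14.4 kb, and every 1 of these peaks was acetylated. Hexokinases differed: HK1 had 9 peaks and 51.9 kb, while HK2 had no RUNX2 peak and 4.86 kb, with the nearest RUNX2 summit 65306 bp away.

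Antigen presentation was split. Of 23 MHC and presentation genes, with a median span of 7.19 kb, 9 had both marks and 9 had neither. Among all genes with spans of 6.49 to 16.4 kb, 63.7% had both and 22.9% neither. The peptide transporters TAP1 and TAP2 and the immunoproteasome gene PSMB8 shared a peak of 23.9, and TAPBP, tapasin, had 5 peaks, all acetylated, in 26.8 kb. HLA-DRA, HLA-DRB1, HLA-DQA1, HLA-DQB1, HLA-DPA1 and HLA-DPB1, the classical class II genes, were without either mark, as were HLA-B, HLA-F and HLA-G. HLA-DOA and HLA-DOB had RUNX2 alone, at 9.89 and 8.31, and CD74, the invariant chain, had H3K27ac alone, over 2.64 kb. HLA genes have near-identical relatives, and their values are uncertain. Of the 7 GIMAP GTPases, GIMAP8, GIMAP4, GIMAP2, GIMAP1 and GIMAP5 had 1 or 2 peaks each and H3K27ac, and GIMAP6 and GIMAP7 H3K27ac alone, over 6.87 and 1.73 kb.

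Bone genes, where RUNX2 has its textbook role, had both marks in 8 of 24 cases, RUNX2 alone in 4, H3K27ac alone in 2 and neither in 10. Their median span was 12.8 kb, and 63.7% of all genes with spans of 6.49 to 16.4 kb had both. PHEX, an endopeptidase of phosphate balance, had 6 peaks, all acetylated, in 31.0 kb, SP7, the osteoblast factor Osterix, 5 peaks in 6.90 kb, and COL2A1, a cartilage collagen, 3 up to 42.7. SPP1, osteopontin, had peaks of 19.8 and 6.70 that lay 32030 and 33835 bp from H3K27ac, and DLX5, DMP1 and ALPL had 1 unacetylated peak each, of 11.2, 5.89 and 4.53.

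Genes of other cell types varied in how many were marked. Both marks were at 12 of 20 B-lineage, 12 of 20 myeloid, 10 of 20 erythroid and megakaryocyte, 11 of 20 cytotoxic and NK, 7 of 16 epithelial, 9 of 19 neuronal, 1 of 16 liver and secretory and 0 of 26 olfactory receptor genes. All genes stood at 66.6% and the shortest 20% of genes at 48.7%; the median span was 6.52 kb for the myeloid and 14.1 kb for the B-lineage list. IGLL1, the surrogate light chain, had 5 acetylated peaks in 19.4 kb, and CD68, a macrophage gene, 6 in 17.2 kb. TNFRSF13B, a B-cell receptor for BAFF and APRIL, had a peak of 52.0 in a window with 4.36 kb. Of these lists, the neuronal genes had the most members with RUNX2 alone, 6 of 19, among them CNTNAP2, a neurexin-family adhesion protein, with 3 peaks up to 24.4, and GRIN2B, a glutamate receptor subunit, with 1 of 6.81. The median span of the neuronal list was 260 kb, against 40.2 kb for all genes with RUNX2 alone. RUNX2 alone was found at 5.54% of all genes and at 9.59% of the longest 20% of genes.

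Genes with RUNX2 alone included a few with many or strong peaks. MAN1C1, a Golgi mannosidase, led with 9 peaks of 42.6, 29.2, 18.6, 13.7, 11.4, 10.03, 6.62, 6.005 and 3.40. Their summits lay between 23890 and 91307 bp from the nearest H3K27ac. SASH1, a scaffold protein, had 7 peaks, of 57.0, 9.21, 7.21, 4.80, 4.18, 3.83 and 3.80, and the strongest was 496333 bp from H3K27ac. GARNL3, with a GTPase-activating domain, had 5 peaks up to 55.3 and MAG, a myelin glycoprotein, 5 up to 11.6.

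The strongest single peaks of this class were as follows. FBP2, the muscle fructose-bisphosphatase, had peaks of 80.1, 12.01 and 5.60, the first 84985 bp from H3K27ac. IL20RA, an interleukin receptor of epithelia, reached 64.6, SLC13A5, a citrate carrier, 64.5, SASH1 57.0, PLCE1, a phospholipase, 55.9, GARNL3 55.3, RHCG, an ammonium carrier of the kidney, 55.2, and GRHL3, an epidermal factor, 53.9. The median strongest peak was 10.3 at genes with both, which had more peaks to choose from, and 6.81 at genes with RUNX2 alone. From the span of a gene with RUNX2 alone, the nearest H3K27ac was a median of 50.5 kb away, and over 100 kb away at 30.8% of them.

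Genes with H3K27ac alone were acetylated over shorter stretches. ARHGAP27, a GTPase-activating protein, had the most, 41.7 kb in 10 regions, over 70.7% of its window. ERAP2, which trims peptides for MHC class I, had 33.0 kb, TMEM184A, a membrane protein, 29.9 kb over 88.1% of the window, ST3GAL4, a sialyltransferase, 25.5 kb, and INO80D, a chromatin remodeller subunit, 25.05 kb in 12 regions. CCNB2, a mitotic cyclin, had 22.8 kb, IRAK1, a kinase of Toll-like and IL-1 receptors, 21.8 kb, and PSME4, a proteasome activator, 21.2 kb.

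How far RUNX2 was from these genes varied. The nearest summit was 11470 bp from TMEM184A and 12665 bp from ERAP2, just past the 10 kb limit, but 70109 bp from CCNB2 and 73382 bp from INO80D. Over all genes with H3K27ac alone, the nearest RUNX2 summit was a median of 24.6 kb from the span (quartiles 15.3 and 46.0 kb) and over 100 kb away at 11.04% of them. With a limit of 50 kb, 50.6% of the genes with RUNX2 alone and 22.4% of those with H3K27ac alone stayed in their class.

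At start sites the 2 marks had different shapes. RUNX2 summits piled up just before the start: at genes with both marks 20.2% of 15515 start sites had a summit in the 100 bases from -100 to -1, and 8.04% in the next 100. Averaged over bins of 100 bases, 5.03% had a summit in the kilobase before and 2.79% in the kilobase after. H3K27ac was broad and highest at 100 to 199 bases after the start, over 74.3% of start sites. At genes with RUNX2 alone the profile peaked in the same bin, -100 to -1, but at 2.91% of 1170 start sites. At genes with H3K27ac alone acetylation was highest in the same bin, 100 to 199, at 40.2% of 1468 start sites. Of the 31643 peaks in windows with both marks 31.2% were within 1 kb of a gene end, and of the 1176 peaks lying only in windows with RUNX2 alone 14.8% were.

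**Figure D4:**
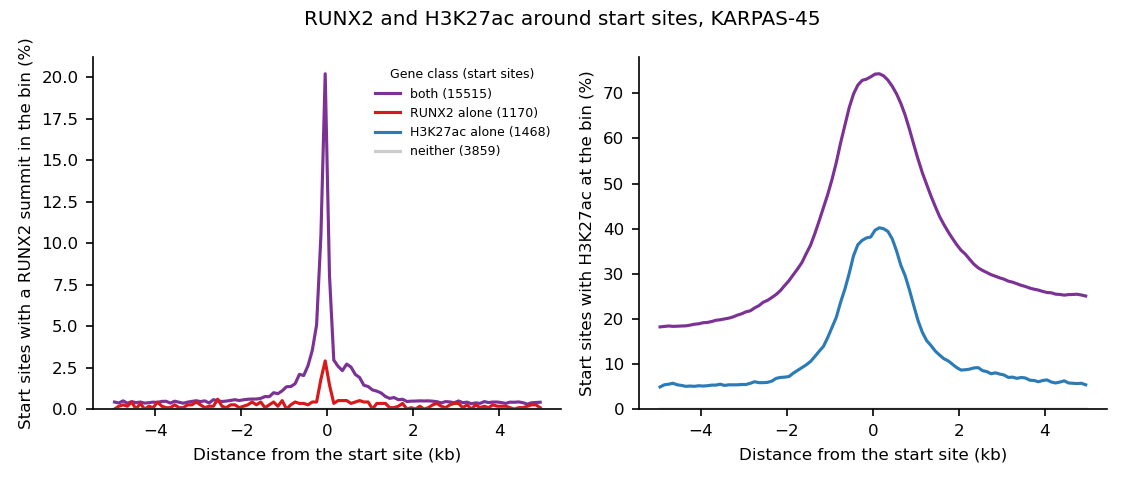
Share of start sites (%) with a RUNX2 summit (left) or H3K27ac (right) in bins of 100 bases against distance from the start (kb, negative upstream), by class of gene. RUNX2 forms a narrow peak at the start, 20.2% for genes with both and 2.91% for RUNX2 alone, and H3K27ac a broad one, 74.3% for both and 40.2% for H3K27ac alone; classes that lack a mark are at 0 by definition.

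Counted by peak, 65.2% of RUNX2 summits lay inside H3K27ac (27958 of 42911; 64.7 to 65.6). The share differed more by place than by strength. Inside H3K27ac were 91.8% of summits within 1 kb of a protein-coding gene end, 62.2% of those elsewhere inside a gene, 58.4% of those 1 to 10 kb outside and 46.6% of those farther away. In 10 equal groups by fold enrichment, weak to strong, the share was 69.6, 63.1, 60.8, 60.2, 61.1, 63.2, 67.3, 66.9, 69.5 and 69.8%, and the intervals of the weakest (68.2 to 70.9) and the strongest group (68.4 to 71.2) overlapped. The median fold enrichment was 6.56 inside H3K27ac and 6.05 outside. Among summits over 10 kb from any gene, 59.9% of the strongest group and 51.9% of the weakest were inside (56.9 to 62.8 and 48.7 to 55.1).

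Summits inside H3K27ac sat a median of 1172 bp from the edge, and 65.5% of them lay in the middle 50% of their region. Summits outside were mostly far from it: their median distance to the nearest region was 12835 bp, 54.7% were over 10 kb and 12.9% over 100 kb away, and 16.3% were within 500 bp of an edge.

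Counted by region, 29.7% of H3K27ac regions held a RUNX2 summit, 18807 of 63265, and 4973 held more than 1. Width separated them: in 10 equal groups by width, the share was 1.98% in the narrowest, 19.0% in group 5 and 79.5% in the widest. Per 10 kb of region, which takes length into account, the widest group had 1.46 summits, group 7 had 2.25 and the narrowest 0.722, so density was highest in regions of intermediate width. In 10 groups by the deposited H3K27ac fold enrichment the share ran between 14.7% in the lowest and 35.2% in group 7, with 24.97% in the highest. That score had a rho of only 0.0699 with region width over 63265 regions, against 0.634 for RUNX2 peaks, and of 0.751 with the score of the preceding region in the file, against -0.00495 for RUNX2. Whether the H3K27ac score columns belong to the regions beside them is uncertain, and so are these shares by score.

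**Figure D5:**
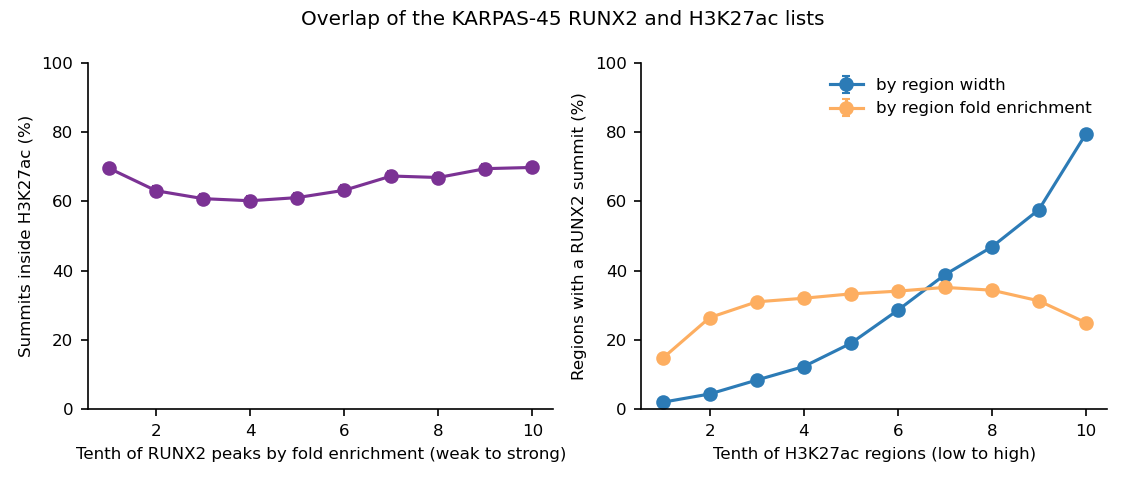
Left, share of RUNX2 summits inside H3K27ac (%) in 10 groups by RUNX2 fold enrichment; right, share of H3K27ac regions with a RUNX2 summit (%) in 10 groups by region width and by region fold enrichment. Points have Wilson 95% intervals, mostly smaller than the marker; the left curve stays between 60.2% and 69.8%, and the right one by width runs between 1.98% and 79.5%.

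The regions with most RUNX2 summits were wide, and some lay outside protein-coding genes. A region of 201 kb within GSE1 (chr16:85427115-85628453) held 50 summits. The widest of all, 368 kb at chr6:21798263-22166244, held 42 and overlapped no protein-coding gene but the long non-coding RNA genes CASC15 and NBAT1, both studied in neuroblastoma. A region of 163 kb over LHPP and FAM53B (chr10:124585255-124747871) held 29, and 1 of 177 kb in MSI2 (chr17:57394203-57571234) held 27. On chromosome 1, a region of 168 kb at chr1:199025526-199193400 held 25 summits without a protein-coding gene, next to 1 of 152 kb over MIR181A1HG, the host gene of a miR-181 cluster that acts in T-cell development, with 15. The region of 131 kb over TCF7, VDAC1 and SKP1 (chr5:134026013-134157148) held 21, TCF7 being a Wnt-pathway factor of early thymocytes. In all, 10092 RUNX2 peaks, 23.5%, were in no gene window, and 46.6% of them were inside H3K27ac.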

How the data were processed

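One peak list per ChIP library was used, both on hg38 and taken as deposited. The submitters' processing notes name STAR 2.4.2a and MACS2; what each did, with which settings and which input, is not given in the sources used here. The authors deposited for each peak a display score, −log10 p, −log10 q and a linear ratio, the fold enrichment; the lowest −log10 q was 1.31 for RUNX2 and 0.431 for H3K27ac. No read counts were used, so depth is unknown. The 46275 RUNX2 lines became 42911 intervals: 127 lines on other sequences were set apart, and lines with the same interval were joined with the strongest summit. The 63433 H3K27ac lines left 63265 regions covering 167 Mb.

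Gene spans and promoters came from RefSeq tables of GRCh38.p14. Spans are given without exons, so exons and introns were not resolved. Overlap was 1 bp or more. Shares have Wilson 95% intervals. Calculations were done in Python 3.11.15 with pandas 2.3.3, scipy 1.17.1, numpy 2.4.6 and, for plots, matplotlib 3.10.9. The interval code was checked on simulated data. Members and the 38 gene lists (812 genes) were chosen with earlier results of these data known, and no list was tested.

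Genes were named by rank within each class: the 8 leaders by number, density and coverage with both marks, the 10 leaders with a mark alone, and up to 4 members per class and list. Windows overlapping one already taken were passed over. Further members were named after their values were seen, to complete small counts. Genes of chromosome 8 were not named, and a few other genes chosen this way are not reported here. Alternatives were windows of 0, 1 and 50 kb, stricter RUNX2 and H3K27ac lists, at least 1 kb or 2 peaks, other overlap rules and assignment to the nearest gene. Leaving out H3K27ac regions over 20 kb was chosen after seeing the data.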

Additional observations from a re-analysis of the deposited data

Results flagged for a closer look

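A signal was also present outside the chromosomes compared. Of the RUNX2 lines, 127 lay outside chromosomes 1 to 22 and X, and 31 of these were on the mitochondrial genome. Of the H3K27ac lines, 168 lay outside these chromosomes, and none of them on the mitochondrial genome. They entered no comparison, and no further value was taken from them.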

How the results depend on the processing

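Of 93 values recomputed for the summaries, 55 stayed within a set tolerance (counts within 1.5 times, rho and the ratio of folds within 0.05, shares within their interval) and 38 did not; rho kept its sign. The order of the single-mark classes was not stable. Genes with RUNX2 alone numbered 1107 and with H3K27ac alone 1467, but 1045 and 574 in windows of 50 kb (neither mark: 2349), 2372 and 1182 at an H3K27ac −log10 q of 2 or more, 2185 and 856 with the wider 50% of regions, and 1675 and 1028 with at least 1 kb of H3K27ac. They numbered 579 and 4209 at a RUNX2 −log10 q of 10 or more, 298 and 8418 with the 10000 strongest RUNX2 peaks, and 279 and 5082 with at least 2 peaks. With the 10000 strongest, genes with both numbered 6358, fewer than with H3K27ac alone, and list members with both 347 against 603. H3K27ac alone numbered 2483 in the span only and 2406 by the nearest gene. The largest shifts within the tolerance included both at 9694 with at least 2 peaks, neither at 5720 in the span only, RUNX2 alone at 1514 by the nearest gene and H3K27ac alone at 2032 in windows of 1 kb. The rho across genes was 0.680 in the span only, 0.837 with 50 kb, 0.639 and 0.425 with the stricter RUNX2 lists, 0.695 with the H3K27ac list at −log10 q of 2 or more and 0.638 by the nearest gene.

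Summits inside H3K27ac made up 68.8% at a RUNX2 −log10 q of 10 or more and 69.3% of the 10000 strongest (ratio of median folds inside to outside 1.004 and 1.02, against 1.08), 54.2% at an H3K27ac −log10 q of 2 or more, 58.2% with the wider 50%, 68.0% by interval overlap, 70.8% within 500 bp and 55.6% without regions over 20 kb. Regions with a summit made up 18.9, 9.53, 32.4, 50.3, 31.3, 32.8 and 28.9% in the same order. The deposited H3K27ac fold enrichment hardly followed region width but followed the preceding region, so it is uncertain whether the score columns belong to the regions beside them, and the values at an H3K27ac −log10 q of 2 or more share that doubt. The cause of the shifts was not tested.

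No paired analysis was possible because each mark has 1 library and no comparison between replicates was made; no leave-out of replicates was run either. Without read depth, an uncalled mark and one below detection cannot be told apart.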
